A study of Homo sapiens with 9 samples.

Results

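The short isoform of TACI was set directly against the long isoform in BJAB, an established line of human B cells, Burkitt lymphoma per the labels. The comparison uses 6 of the 9 libraries of the series, 3 of cells given the short form (TACI short) and 3 of cells given the long form (TACI long). They were chosen by their labels alone. The other 3 libraries are of parental BJAB cells (control). Their levels are given as a reference and enter no test. All cells were untreated. The titles call the introduced isoforms stably transfected and the design text calls them transduced. Whether a line is a clone or a pool, which promoter drives the insert and whether the replicates are separate cultures are not given in the sources used here, so p-values measure only the spread between libraries, and that spread may be technical. Polyadenylated RNA from sorted cells was sequenced without strand information.

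TACI, the product of TNFRSF13B, belongs to the TNF receptor superfamily and sits on B cells. It binds the cytokines BAFF and APRIL and passes signals through TRAF adaptors to NF-kB, a family of transcription factors held in the cytoplasm by inhibitors of the IkB type. In the classical branch IkB kinase releases dimers of RELA, REL and p50. In the alternative branch the kinase NIK, encoded by MAP3K14, leads to p52, which is cut from the NFKB2 product and pairs with RELB. Human B cells splice the receptor in a long form with a pair of cysteine-rich ligand-binding domains and a short form in which exon 2, which encodes the first of them, is skipped. The design text states that both forms occur together in human B cells and that each was introduced alone to see its own effect on transcription.

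The exon that separates the 2 forms is shown because it is the designed difference between the lines. In GENCODE release 29 the transcript TNFRSF13B-201 has 5 exons and 293 codons, and TNFRSF13B-206 has 4 exons and 247 codons. They differ in their coding part by exon 2 alone, 138 bases and 46 codons at chr17:16952446-16952583 on the minus strand (GRCh38). Capitals mark its 6 cysteine codons that lie in frame.
exon 2 of TNFRSF13B-201: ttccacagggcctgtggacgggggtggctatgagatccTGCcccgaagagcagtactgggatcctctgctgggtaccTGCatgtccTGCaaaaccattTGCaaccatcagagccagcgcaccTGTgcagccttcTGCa
The sequences of the introduced constructs are not given in the sources used here, and counts per gene do not tell the isoforms apart.

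TNFRSF13B (ENSG00000240505, chr17:16929816-16972118, minus strand) was counted first as the introduced gene, though its count cannot show which form a line carries. Its level in CPM (counts per 1000000 counts, scaled between libraries with TMM factors) was 2922, 2758 and 2545 in TACI short replicates 1, 2 and 3. It was 726, 729 and 775 in TACI long and 30.5, 15.8 and 15.3 in control. Both lines thus stood far above the parental cells, and each short library stood above each long one. The difference between short and long was 1.88 ± 0.06 on the log2 scale (log2 fold change ± SE, 3 libraries per group), or 3.69-fold, with an adjusted p of 3.56e-17 in the quasi-likelihood test of edgeR. With replicate 1 of TACI short alone it was 1.97. The isoform and the amount of TNFRSF13B mRNA therefore differ together between the lines, and their parts in any difference below cannot be told apart.

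The short libraries were not alike. TACI short replicates 2 and 3 had a count for 32882 and 32209 genes, against 24307 to 25938 in the other 7 libraries, at total counts of 40322136 to 50079203. The 24 markers of macrophages and other myeloid cells summed to 762 and 743 CPM in these libraries, against 100 in short replicate 1, 108 to 203 in TACI long and 88.5 to 168 in control. Of the 24 markers, 16 were higher in both of them than in each of the other 7 libraries, while S100A8, C1QB and C1QC had no count in any library. SPP1, which encodes the secreted protein osteopontin, measured 60.4, 622 and 605 CPM in TACI short and 159, 131 and 81.0 in TACI long. The 9 B-cell markers summed to 6340 to 6960 CPM in TACI short and 5761 to 5938 in TACI long. The 19 markers of T and NK cells summed to 34.8 to 37.8 CPM in TACI short, 30.2 to 32.3 in TACI long and 69.2 to 72.6 in control. TRAC, the constant part of the T-cell receptor alpha chain, measured 21.0, 23.0 and 23.0 CPM in TACI short, 14.1, 12.1 and 12.3 in TACI long and 52.5, 51.7 and 55.9 in control (0.80 ± 0.07). CD247 was lower in TACI short at -0.75 ± 0.09 and NKG7 higher at 0.59 ± 0.19, a call lost without TACI long replicate 2 or 3, while CD3D, CD8B and CD7 had no count in these 6 libraries. The 12 markers of red cells and platelets summed to at most 1.06 CPM. Calls of the genes named below were also made with short replicate 1 alone against the 3 TACI long libraries except where stated. The counts or the median of a list are given for that replicate where its counts differ. The part of the myeloid transcripts in the differences was not tested.

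Of 16198 genes with enough counts, 5615 (34.7%) were higher and 5447 (33.6%) lower in TACI short at an adjusted p under 0.05, so 68.3% of genes were called, and in 72.1% the groups did not overlap. These shares are the background for the list counts below. The median log2 fold change over all genes was 0.04. Most calls were small: 2473 genes (15.3%) were higher by at least 1 on the log2 scale and 597 (3.69%) were lower by as much, and by at least 2 there were 894 and 119. With short replicate 1 alone 63.3% of 17025 genes were called. Of the calls with all 6 libraries, 5005 of the higher (30.9% of genes tested) and 4736 of the lower genes (29.2%) were called the same way with replicate 1 alone, and 0 the opposite way. Of those at least 1 on the log2 scale, 2155 and 538 were. The control mean lay between the means of the lines for 3297 of the higher and 3147 of the lower genes, above both for 927 and 1475, and below both for 1391 and 825.

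**Figure D1:**
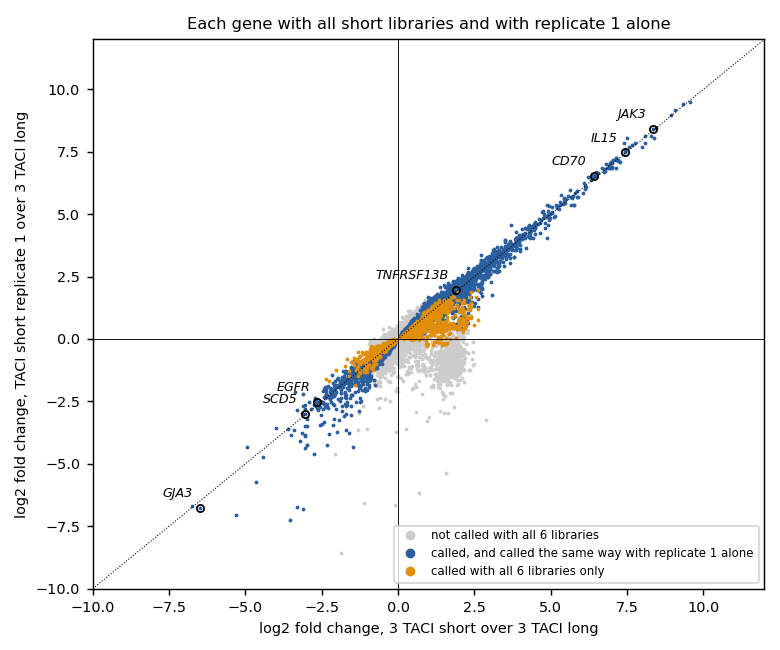
Log2 fold change of each gene with all 3 TACI short libraries (horizontal axis) and with replicate 1 alone (vertical axis), both against the 3 TACI long libraries. Blue points are called the same way in both, orange points are called with all 6 libraries only, grey points are not called with all 6, and the dotted line marks equal values. JAK3, IL15, CD70 and GJA3 lie toward the ends of the line, and a grey group near 1.5 to 2 on the horizontal axis lies below 0 on the vertical one.

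The greatest differences were in genes that the long line barely expressed. CD70 (ENSG00000125726, chr19:6583183-6604103, minus strand), the TNF-family ligand of CD27, measured 106, 93.1 and 93.3 CPM in TACI short and 0.944, 1.45 and 1.02 in TACI long, with 3.45, 2.84 and 3.17 in control. The groups were far apart, at 6.41 ± 0.11 on the log2 scale or 84.8-fold (adjusted p 1.42e-12), and 6.53 with replicate 1 alone. JAK3 (ENSG00000105639, chr19:17824780-17848071, minus strand), the kinase bound to the common gamma chain of cytokine receptors, measured 17.3, 18.8 and 13.2 CPM in TACI short and 1.04, 1.31 and 1.24 in control. In TACI long it had 6 counts over the 3 libraries, none of them in replicate 3, against 2285 in TACI short, a ratio of 339-fold (exact 95% interval 156 to 926) that covers counting error only. IL15, a cytokine that signals through JAK3, measured 14.7, 12.8 and 15.2 CPM in TACI short, with 10 counts over the long libraries and a ratio of 179-fold (exact 95% interval 97.2 to 374). In control it was at 0.207, 0.287 and 0.180 CPM, so only the short line stood clear of a low level. CCR7, the receptor that guides lymphocytes into lymph nodes, measured 29, 26.1 and 28.7 CPM in TACI short, 0.248, 0.522 and 0.268 in TACI long and 3.36, 3.30 and 3.33 in control (6.31 ± 0.17, 79.2-fold, adjusted p 2.07e-10).

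GJA3 (ENSG00000121743, chr13:20138255-20161049, minus strand), which encodes the gap junction protein connexin 46, known from the lens, was the gene of this kind on the other side. It measured 0.466, 0.554 and 0.651 CPM in TACI short, 52.6, 49.4 and 50.8 in TACI long and 5.48, 5.52 and 4.45 in control. Its log2 fold change was -6.50 ± 0.09, or 90.3-fold lower in TACI short (adjusted p 2.37e-22), and -6.76 with replicate 1 alone. The control level lay between the lines. Of the 24 genes of gap junction proteins and pannexins, 6 had enough counts. PANX1, a channel that releases ATP, was higher in TACI short at 9.14, 10.7 and 11.4 CPM against 1.54, 1.52 and 0.779 (3.02 ± 0.26), and GJC1 was higher by 0.86 ± 0.12.

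**Figure D2:**
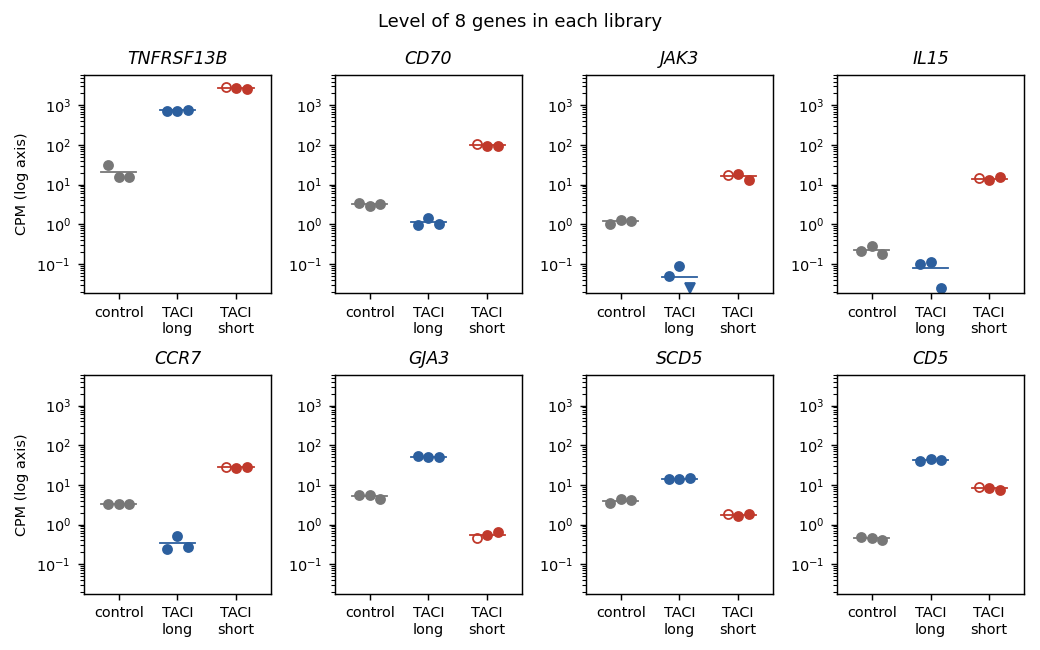
Level of 8 genes in CPM (log axis) in each control, TACI long and TACI short library. Circles are libraries, the open circle is TACI short replicate 1, lines are group means, and a triangle marks a library with 0 counts. The 3 short libraries lie close together for each of the 8 genes, above TACI long for the first 5 and below it for GJA3, SCD5 and CD5.

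The 15 greatest differences upward were taken among protein-coding genes with a mean log2 CPM of at least 1, groups that did not overlap and a call with replicate 1 alone. Of these, 11 had a control mean between the lines and 4 below both. B3GNT6, a glycosyltransferase of mucin-type sugar chains, measured 64.0, 59.5 and 53.6 CPM in TACI short and 0.348, 0.454 and 0.438 in TACI long (7.14 ± 0.11). CREB3L1, a membrane-bound transcription factor of secretory cells, measured 42.6, 43.7 and 37.1 and 0.720, 0.636 and 0.755 CPM (5.87 ± 0.10). ABCA8, a membrane transporter, measured 14.3, 14.6 and 13.4 and 0.174, 0.136 and 0.292 CPM (6.12 ± 0.16). The neuromedin receptor gene NMUR2 had 1132 counts in TACI short and 1 in TACI long, a ratio of 1009-fold (exact 95% interval 181 to 39879). CAPN6, a calpain-family gene, had 717 and 2 counts, a ratio of 319-fold (exact 95% interval 88.1 to 2643). MMRN1, a platelet and endothelial protein, had 714 and 3, a ratio of 212-fold (exact 95% interval 72.3 to 1031). Ratios for UNC13C, the tight-junction gene CLDN1, the intestinal enzyme SI, the protease BACE2 and PPFIA4 were 131-fold (exact 95% interval 51.1 to 484), 117-fold (exact 95% interval 50.1 to 363), 111-fold (exact 95% interval 60.1 to 232), 110.0-fold (exact 95% interval 66.4 to 197) and 59.8-fold (exact 95% interval 36.6 to 105), from 4, 5, 10, 15 and 16 counts in TACI long. Several of these genes are better known from epithelium or nerve than from B cells. CLDN1 was also low in the control libraries, at 0.0691, 0 and 0.0450 CPM. So were NMUR2, CAPN6, MMRN1, UNC13C, SI and BACE2, with control means of at most 0.0543 CPM. For these genes only TACI short stood clear of a low level, whichever side of TACI long the control mean lay. The control mean of B3GNT6 was 0.493 CPM, near TACI long. Those of ABCA8, PPFIA4 and CREB3L1 were 1.55, 1.5 and 1.21 CPM.

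The 15 greatest differences downward under the same conditions were smaller, apart from GJA3. SCD5, a fatty acid desaturase, measured 1.80, 1.66 and 1.80 CPM in TACI short, 13.8, 14.3 and 15.3 in TACI long and 3.52, 4.35 and 4.05 in control (-3.05 ± 0.10, 8.25-fold lower, adjusted p 1.65e-16). EGFR, the epidermal growth factor receptor, measured 1.02, 1.25 and 0.574 against 5.81, 5.79 and 6.02 CPM (-2.64 ± 0.23). CD5, a surface protein of T cells and of a B-cell subset that dampens antigen receptor signals, measured 8.94, 8.17 and 7.62 in TACI short and 40.4, 44.1 and 43.0 in TACI long. In control it was at 0.484, 0.454 and 0.405, so both lines stood above the parental cells and TACI long by more (-2.37 ± 0.07). TAS1R3, a taste receptor subunit, measured 8.90, 8.70 and 7.94 and 52.7, 47.8 and 51.7 CPM, with 5.90, 5.19 and 5.98 in control (-2.58 ± 0.06). ACAA2, a mitochondrial enzyme of fatty acid oxidation, measured 0.377, 1.31 and 1.21 against 8.67, 7.52 and 7.67, and its level in short replicate 1 was below that in the others (-3.03 ± 0.47 with all libraries, -4.39 with replicate 1 alone). The other 9 genes, SMIM35, SHROOM4, PRR15L, ZNF696, VIPR2, MYBPH, LRRC14B, PDE2A and CSDC2, had log2 fold changes from -3.62 to -2.39. The control mean lay between the lines for 11 of the 15 and below both for 4.

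Genes of the NF-kB pathway differed by role. Of 35 measured members 19 were higher, 9 lower and 7 not called, with a median log2 fold change of 0.28. All 6 inhibitors were higher, with a median of 2.24, and of the 5 subunits 3 were higher and 1 lower. Of the 9 kinases and their partners 2 were higher and 5 lower. The shares over all genes tested were 34.7% higher and 33.6% lower, so calls in both directions are also the background. With replicate 1 alone 25 of the 28 calls were made the same way. With upper-quartile scaling factors, which add 0.10 to the median over all genes, 21 members were higher and 3 lower, since the calls of RELA, IKBKG, RIPK1, TBK1, MAP3K7 and TAB2 were lost.

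Among the subunits, NFKB2, the precursor of p52, measured 300.0, 278 and 266 CPM in TACI short, 55, 57.1 and 56.6 in TACI long and 80.1, 73.6 and 75.7 in control. The log2 fold change was 2.32 ± 0.05, or 4.99-fold (adjusted p 3.24e-19), and 2.41 with replicate 1 alone. RELB, its partner, measured 172, 156 and 156 against 64.9, 63.2 and 65.6 CPM (1.33 ± 0.05, adjusted p 1.67e-15). NFKB1, the precursor of p50, measured 64.4, 67.0 and 61.8 against 23.1, 23.4 and 21.4 (1.51 ± 0.05). These 3 were well separated, whereas RELA was lower by a small amount at 96.5, 96.5 and 89.8 against 99.4, 102 and 105 CPM (-0.11 ± 0.05, adjusted p 0.0361, no call with replicate 1 alone). REL overlapped between the lines at 52.3, 51.1 and 46.2 and 49.6, 58.2 and 56.8 CPM (-0.14 ± 0.06, adjusted p 0.0718).

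The inhibitor family holds the classical IkB proteins, which retain NF-kB in the cytoplasm, and nuclear members such as BCL3 and NFKBIZ, which can also coactivate its target genes. NFKBIA, which encodes IkB alpha, measured 96.2, 94.4 and 94.5 CPM in TACI short, 20.2, 20 and 19.2 in TACI long and 15.7, 15.1 and 14.8 in control (2.26 ± 0.05, 4.8-fold, adjusted p 2.63e-19). BCL3, a nuclear partner of p50 and p52 dimers, measured 28.4, 28.9 and 26.3 against 3.01, 3.56 and 3.39 (3.07 ± 0.08, 8.38-fold). NFKBIZ, another nuclear family member, measured 9.29, 10.8 and 7.35 against 0.770, 0.817 and 0.390 (3.78 ± 0.29). Each short library stood above each long one for these genes. The differences for NFKBID, NFKBIE and NFKBIB were 2.21 ± 0.14, 0.62 ± 0.05 and 0.37 ± 0.05. TNFAIP3, which encodes the ubiquitin-editing enzyme A20 that shuts the pathway down, measured 39.0, 41.2 and 41.6 CPM in TACI short, 4.45, 3.43 and 3.00 in TACI long and 3.02, 4.40 and 3.53 in control (3.49 ± 0.12, 11.2-fold, adjusted p 9.87e-09). Its partners TNIP1 and TNIP2 and the deubiquitinase CYLD were higher by 1.14 ± 0.04, 0.84 ± 0.06 and 0.28 ± 0.05, and OTULIN, which trims linear ubiquitin chains, was lower at -0.41 ± 0.05.

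The adaptors and kinases that sit between receptor and subunits moved less and in both directions. BIRC3, which encodes the ubiquitin ligase cIAP2, was the exception at 707, 653 and 666 CPM in TACI short, 93.5, 92.7 and 93.5 in TACI long and 87.5, 85.0 and 84.4 in control (2.86 ± 0.05, 7.24-fold, adjusted p 4.84e-21). Its paralogue BIRC2 measured 60.6, 55.9 and 62.3 against 61, 63.3 and 60.0 and was not called (-0.04 ± 0.05, adjusted p 0.451). TRAF1 was higher at 18.4, 22.3 and 20.8 against 7.92, 6.83 and 7.45 CPM (1.47 ± 0.08), and so was TRAF3, which marks NIK for decay in resting cells, at 102, 99.5 and 95.1 against 48.7, 50.1 and 52.2 (0.97 ± 0.05). TRAF5 was higher by 0.20 ± 0.06, a call that was lost without TACI long replicate 1 or 3 or short replicate 1. TRAF2 and TRAF6, which are among the adaptors that TACI is known to bind, were not called, at -0.10 ± 0.05 and -0.13 ± 0.07. MAP3K14 measured 34.8, 34.6 and 32.1 against 16.4, 18 and 18.4 CPM (0.94 ± 0.06). Of the IkB kinase genes IKBKB was higher by 0.41 ± 0.06, and CHUK and IKBKG were lower, with log2 fold changes of -0.35 ± 0.05 and -0.28 ± 0.11, the latter call being lost without TACI long replicate 3 or short replicate 2. MYD88, the adaptor of Toll-like receptors, which also binds TACI, measured 55.2, 53.7 and 55.8 in TACI short, 109, 109 and 110.0 in TACI long and 92.9, 90.9 and 90.2 in control (-0.99 ± 0.04, adjusted p 4.4e-14). RIPK1, TBK1, MAP3K7 and TAB2 were lower by less, with log2 fold changes from -0.22 to -0.13, and the calls of IKBKG and TBK1 were not made with replicate 1 alone. TRADD, IKBKE and TAB1 were not called with all libraries.

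**Figure D3:**
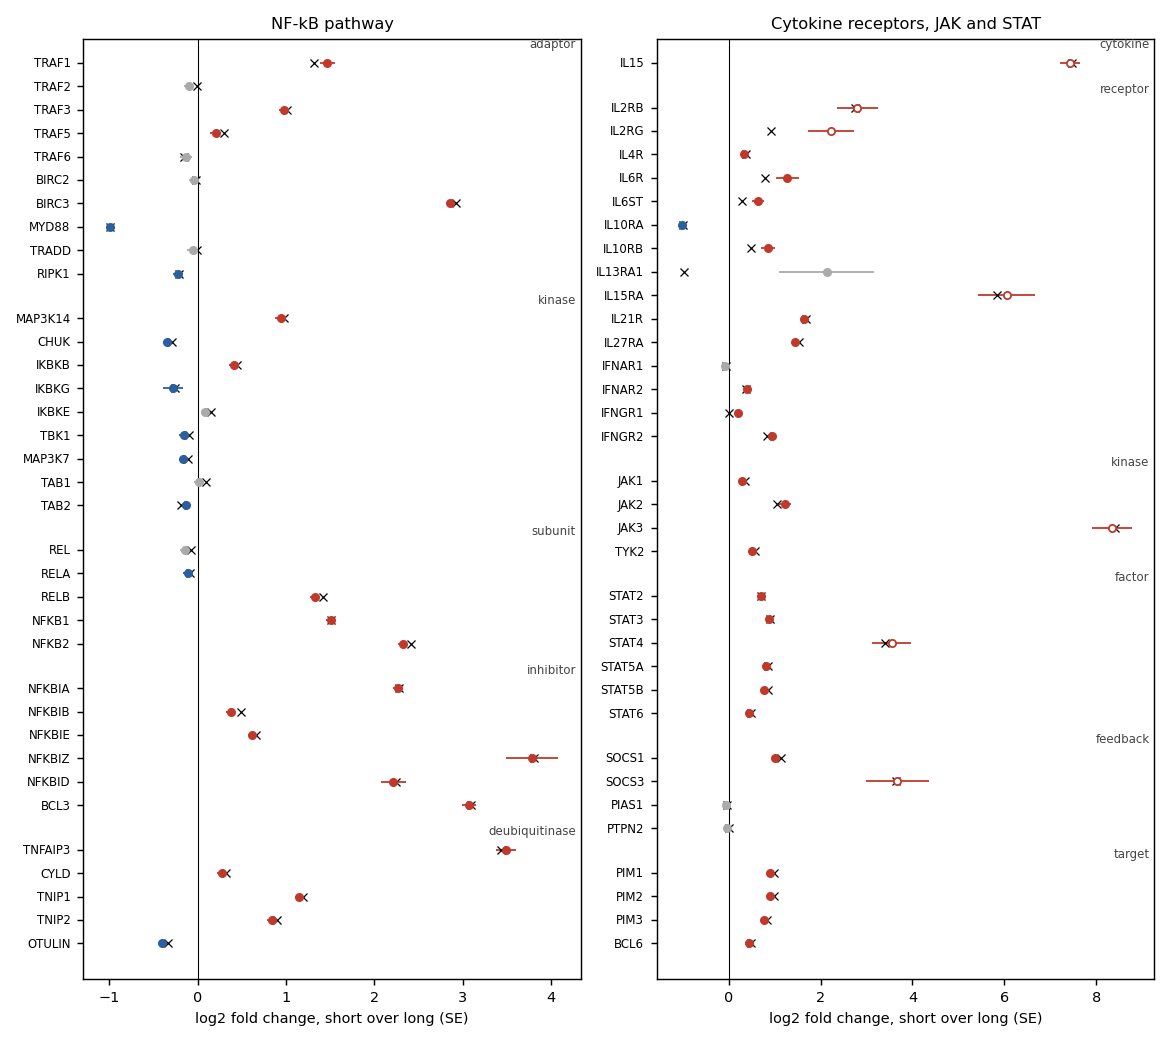
Log2 fold change of TACI short over TACI long for measured members of the NF-kB pathway (left) and of the cytokine receptor, JAK and STAT list (right), ordered by role. Circles with bars are the estimate and its SE (red called higher, blue called lower, grey not called, open where TACI long had 20 counts or fewer), and crosses are replicate 1 alone. All 6 inhibitors lie right of 0, and the crosses lie near the circles except for IL2RG, IL6R, IL6ST, IL10RB and IL13RA1.

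Known NF-kB target genes were mostly higher. Of 35 measured targets 24 were higher, 3 lower and 8 not called, with a median of 1.82, and with replicate 1 alone 25 were higher and 5 lower, with a median of 1.28. CCL22, a chemokine for T cells, measured 14.6, 12.9 and 12.4 CPM in TACI short and 0.472, 0.431 and 0.171 in TACI long (5.20 ± 0.27). CD80, a costimulatory ligand of CD28, measured 37.7, 34.8 and 34.0 against 2.46, 2.13 and 2.02 CPM, with 1.93, 1.31 and 1.30 in control (4.01 ± 0.08, 16.1-fold, adjusted p 6.89e-20). LTB, which encodes lymphotoxin beta, measured 266, 237 and 227 against 16.4, 16.6 and 16.2 (3.89 ± 0.06). IL10, a cytokine that restrains inflammation, measured 53.6, 52.1 and 52.6 against 4.57, 4.11 and 3.58 (3.69 ± 0.07), and EBI3, a subunit of the IL-27 and IL-35 cytokines, was higher by 3.27 ± 0.17. The microRNA host transcript MIR155HG was higher by 3.05 ± 0.17 on low levels of 4.44, 4.73 and 4.90 CPM. ICAM1, an adhesion ligand, measured 65.3, 84.0 and 82.4 in TACI short and 12.7, 11.3 and 9.77 in TACI long (2.78 ± 0.16, 2.53 with replicate 1 alone). The targets lower in TACI short were CD86, SOD2 and TNFAIP8 at -0.27, -0.34 and -0.47, named after their values were seen, and CD86 was not called with replicate 1 alone.

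The stretch before the start of 4 of the higher pathway genes is printed because it holds the kappaB consensus, the binding motif of NF-kB (capitals, searched on both strands in the 250 bases before the RefSeq start, GRCh38.p14, and cut where a GENCODE exon begins).
NFKBIA, chr14:35404750-35404999, minus strand: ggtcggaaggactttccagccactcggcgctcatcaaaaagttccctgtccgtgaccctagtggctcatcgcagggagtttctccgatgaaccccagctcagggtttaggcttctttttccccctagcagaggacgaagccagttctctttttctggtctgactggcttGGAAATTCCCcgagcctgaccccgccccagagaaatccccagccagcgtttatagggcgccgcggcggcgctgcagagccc
BIRC3, chr11:102317234-102317449, plus strand: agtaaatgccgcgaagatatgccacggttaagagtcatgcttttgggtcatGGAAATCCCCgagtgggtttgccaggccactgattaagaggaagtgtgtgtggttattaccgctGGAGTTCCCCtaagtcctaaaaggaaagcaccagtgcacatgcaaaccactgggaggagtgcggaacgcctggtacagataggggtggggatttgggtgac
NFKBIZ, chr3:101827740-101827989, plus strand: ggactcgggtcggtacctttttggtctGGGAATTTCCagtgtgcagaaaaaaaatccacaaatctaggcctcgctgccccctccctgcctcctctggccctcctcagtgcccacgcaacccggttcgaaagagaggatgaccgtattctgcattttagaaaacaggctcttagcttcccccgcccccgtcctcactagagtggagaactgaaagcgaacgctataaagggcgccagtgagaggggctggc
TRAF3, chr14:102777199-102777448, plus strand: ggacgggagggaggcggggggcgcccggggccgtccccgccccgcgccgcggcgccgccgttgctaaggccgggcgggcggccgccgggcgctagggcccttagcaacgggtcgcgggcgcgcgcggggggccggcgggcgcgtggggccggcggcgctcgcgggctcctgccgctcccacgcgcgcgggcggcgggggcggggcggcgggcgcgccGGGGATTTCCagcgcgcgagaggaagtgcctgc
The motif was in 9.96% of the 35116 promoters of the table, in 13.3% of those of all genes called higher and in 10% of those of all genes called lower. It was in 6 of the 16 higher pathway genes with an entry (37.5%), in 0 of the 9 lower ones, and in 7 of 21 higher target genes (33.3%). The other pathway genes with a match that were called higher were NFKB1 and TNFAIP3, and REL, which was not called, also had a match. Such a match describes the letters only.

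Cytokine receptors and the JAK and STAT proteins they use were higher almost throughout. Of 35 measured members of the list 30 were higher, 1 lower and 4 not called, with a median of 0.86. With replicate 1 alone 28 were higher and 1 lower, with a median of 0.82. All 4 JAK kinases were higher. JAK2 measured 5.79, 6.97 and 6.70 CPM in TACI short against 2.63, 3.16 and 2.53 (1.22 ± 0.13), TYK2 was higher by 0.51 ± 0.05 and JAK1 by 0.28 ± 0.05. STAT3 measured 159, 157 and 155 in TACI short, 84.5, 89.4 and 83.4 in TACI long and 143, 144 and 142 in control (0.87 ± 0.05, adjusted p 5.13e-13), so here the long line stood apart from the other libraries. STAT5A, STAT5B, STAT2 and STAT6 were higher by 0.81 ± 0.05, 0.77 ± 0.05, 0.70 ± 0.05 and 0.44 ± 0.04. As for STAT3, TACI long stood apart for STAT5B, with means of 163 CPM in TACI short, 95.2 in TACI long and 169 in control. For STAT6 the means were 247, 182 and 252 in the same order. STAT5A stood apart in TACI short instead (38.3, 21.8 and 20.8 CPM), and the control mean of STAT2 lay between the lines. Among the 30 higher members of the list the control mean lay between the lines for 16, below both for 8 and above both for 6. STAT4 had 13 counts in TACI long and 177 in TACI short, a ratio of 12.1-fold (exact 95% interval 6.91 to 23.2). The feedback inhibitor SOCS1 measured 25, 21.3 and 21.9 against 11.3, 11.0 and 11.6 CPM (1.01 ± 0.07), SOCS3 had a ratio of 14.0-fold (exact 95% interval 4.49 to 70.1) from 3 counts in TACI long, and PIAS1 and PTPN2 were not called. The STAT target kinases PIM1, PIM2 and PIM3 were higher by 0.89 ± 0.05, 0.91 ± 0.05 and 0.78 ± 0.05. In TACI short PIM3 was near the parental level, with means of 193 CPM, 113 in TACI long and 198 in control. PIM1 and PIM2 stood above the parental level there.

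IL-15 binds IL15RA and signals through IL2RB, the common gamma chain IL2RG and JAK3, so these chains are given together. IL15RA had 101 counts in TACI short and 1 in TACI long, a ratio of 90.0-fold (exact 95% interval 15.8 to 3590). Its CPM were 0.621, 0.738 and 0.785 in TACI short and 0.299, 0.120 and 0.225 in control. IL2RB measured 0.665, 0.508 and 0.861 in TACI short, 0.149, 0.114 and 0.0244 in TACI long and 0.944, 1.20 and 0.922 in control, a ratio of 7.2-fold (exact 95% interval 3.94 to 14.4) of short over long. IL2RG measured 0.244, 1.02 and 0.574 against 0.149, 0.114 and 0.122, and its call (2.23 ± 0.49, adjusted p 0.000788) was not made with replicate 1 alone (0.92). All of these receptor chains stayed near or under 1 CPM, far under IL21R at 153, 148 and 139 CPM in TACI short, 47.0, 46.2 and 49.4 in TACI long and 159, 155 and 153 in control (1.63 ± 0.05, adjusted p 7.26e-17). IL4R and IL27RA were higher by 0.33 ± 0.05 and 1.44 ± 0.08. IL10RA, a chain of the IL-10 receptor, was the lower member at 24.3, 23.3 and 24.1 against 45.9, 52.0 and 47.2 CPM (-1.02 ± 0.06), with 13.8, 14.2 and 13.8 in control. IL6R and IL6ST were higher with all libraries at 1.28 ± 0.25 and 0.63 ± 0.13 and less so with replicate 1 alone, at 0.79 and 0.30. The interferon receptor chains IFNAR2 and IFNGR2 were higher by 0.40 ± 0.05 and 0.95 ± 0.06. IFNGR1 was called at 0.20 ± 0.07 and not with replicate 1 alone (0.02) or when any TACI long library or short replicate 2 was left out, and IFNAR1 was not called (-0.08 ± 0.04).

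In the TNF superfamily beyond TACI, 9 of 23 measured members were higher and 6 lower, and with replicate 1 alone 9 were higher and 7 lower. Of all genes tested 34.7% were higher and 33.6% lower, so these shares are near the background. Among ligands TNFSF9, which encodes 4-1BB ligand, measured 19.9, 18.1 and 18.9 CPM in TACI short and 3.08, 2.91 and 2.58 in TACI long (2.73 ± 0.09, 6.64-fold), and TNFSF10, which encodes TRAIL, was higher by 0.48 ± 0.18, a call that was lost without TACI long replicate 1 or 2 or short replicate 3. TNFSF11, which encodes RANK ligand, was lower at 1.86, 1.71 and 1.76 against 7.62, 8.79 and 7.65 and 7.62, 7.12 and 6.86 in control (-2.17 ± 0.12, 4.51-fold). Among receptors CD40 measured 107, 99.1 and 99.8 in TACI short, 38.1, 36.1 and 37.1 in TACI long and 32.7, 31 and 30.4 in control (1.46 ± 0.05, adjusted p 3.67e-16). The death receptors FAS, TNFRSF10A and TNFRSF10B were higher by 0.77 ± 0.05, 0.66 ± 0.05 and 0.88 ± 0.05, TNFRSF14 by 2.73 ± 0.20 and TNFRSF12A by 1.27 ± 0.13. TNFRSF10A had means of 42.8 CPM in TACI short, 27.1 in TACI long and 51.4 in control, and TNFRSF10B 65.7, 35.8 and 65.9. Here TACI long stood below the parental cells and TACI short did not stand above them. For FAS, TNFRSF14 and TNFRSF12A the control mean lay between the lines. CD27, the receptor of CD70, went the other way from its ligand, at 41.9, 36.9 and 40.2 CPM in TACI short, 85.8, 79.7 and 86.2 in TACI long and 45.4, 43.0 and 42.9 in control (-1.08 ± 0.05). TNFRSF21, NGFR and TNFRSF18 were lower, at -1.10 ± 0.05, -0.80 ± 0.17 and -0.43 ± 0.05, and RELT was lower by a small amount (-0.15 ± 0.05) that was not called with replicate 1 alone. TNFRSF1A, TNFRSF1B, LTBR, TNFRSF10D, TNFSF14 and TNFSF15 were not called. Nor were TNFSF4 and TNFRSF8, which were at or under 1.04 CPM in each of the 6 libraries. The levels of the first 6 went with short replicates 2 and 3, as for TNFRSF1B at 6.41, 26.6 and 25.1 CPM in TACI short against 7.03, 5.86 and 3.90.

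Of the other receptors of the BAFF and APRIL system, TNFRSF17, which encodes BCMA, measured 2.31, 2.56 and 2.64 CPM in TACI short, 11.0, 12.1 and 10.9 in TACI long and 4.10, 3.94 and 4.86 in control (-2.17 ± 0.10, 4.51-fold lower, adjusted p 1.14e-13). TNFRSF13C, which encodes the BAFF receptor, overlapped between the lines at 55.1, 51.2 and 45.6 and 45.4, 49.8 and 50.2. It was not called with all libraries (0.06 ± 0.07, and 0.18 with replicate 1 alone). The ligand genes were low: TNFSF13, which encodes APRIL, measured 0.954, 0.761 and 0.747 against 0.646, 0.681 and 0.536 CPM, and TNFSF13B, which encodes BAFF, had 14 and 6 counts. CAMLG, a calcium-modulating binding partner of TACI, was higher by 0.35 ± 0.05. The heparan sulfate proteoglycans SDC2 and SDC4, to which APRIL and TACI can bind, followed the myeloid markers, with SDC2 at 2.31, 20.1 and 22.1 CPM in TACI short and 6.61, 5.0 and 3.43 in TACI long. They were not called with all libraries.

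All 15 measured genes of MHC class II, which presents peptides to CD4 T cells, were higher with all libraries and with replicate 1 alone, with medians of 0.93 and 1.06. CIITA, the coactivator that controls them, measured 77.5, 72.0 and 64.0 CPM in TACI short and 32.4, 34.3 and 34.1 in TACI long (1.08 ± 0.06), HLA-DQA1 measured 107, 98.0 and 104 against 12.1, 11.1 and 11.6 (3.15 ± 0.06), and HLA-DOB was higher by 1.80 ± 0.07. The control mean lay between the lines for 13 of the 15. HLA genes share reads with near-identical copies and their values are uncertain. Of 18 genes of MHC class I presentation 13 were higher and 4 lower, beside 34.7% and 33.6% of all genes tested. HLA-B, TAP1, HLA-E and the coactivator NLRC5 were higher by 1.17 ± 0.05, 1.18 ± 0.05, 1.43 ± 0.05 and 0.96 ± 0.06, while the loading chaperones CALR and PDIA3 were lower at -1.64 ± 0.05 and -1.26 ± 0.05. Of 37 interferon-stimulated genes 18 were higher, PARP14 among them (1.40 ± 0.05), and 8 lower, among them MX1 (-1.36 ± 0.17). The shares over all genes tested were 34.7% higher and 33.6% lower. The median of the interferon list was 0.49, and 0.16 with replicate 1 alone. With replicate 1 alone 14 were higher and 11 lower.

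Among Fc receptor-like and SLAM-family genes 9 of 17 were higher and 2 lower, beside 34.7% and 33.6% of all genes tested. Their median was 1.45, and 0.28 with replicate 1 alone. FCRL3, an Fc receptor-like protein of B cells, measured 75.1, 72.0 and 69.4 CPM in TACI short, 2.58, 2.84 and 2.95 in TACI long and 3.18, 2.96 and 2.92 in control (4.69 ± 0.07, 25.8-fold, adjusted p 3.8e-22). FCRL5 measured 17.7, 15 and 14.8 against 0.844, 0.522 and 0.804 (4.45 ± 0.15) and FCRL2 was higher by 2.45 ± 0.07. SLAMF7, a surface protein of plasma cells, measured 48.2, 48.6 and 54.0 in TACI short, 8.77, 9.51 and 8.04 in TACI long and 113, 111 and 111 in control (2.52 ± 0.07), so that both lines were below the parental cells. Among 22 homing and adhesion genes 11 were higher and 2 lower, with a median of 1.10, and with replicate 1 alone 10 were higher and 6 lower, with a median of 0.42. CXCR5, the receptor that leads B cells to follicles, and CXCR4 were higher by 1.25 ± 0.09 and 0.46 ± 0.05. The integrins ITGAX and ITGAL were called at 2.67 ± 0.41 and 1.46 ± 0.40, with lower values of 2.01 and 0.54 with replicate 1 alone. For both, the 2 libraries with the myeloid transcripts were the highest, as for ITGAX at 24.5, 50.0 and 41.7 CPM.

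Immediate early genes, which respond within minutes to receptor signals, were higher in 19 of 26 measured members and lower in 0, with a median of 1.24. With replicate 1 alone 16 were higher and 3 lower, with a median of 0.68. EGR1 measured 457, 434 and 413 CPM in TACI short, 40.3, 34.3 and 36.0 in TACI long and 859, 876 and 906 in control (3.56 ± 0.06, 11.8-fold, adjusted p 2.13e-18). The activation marker CD69 measured 31.1, 29.9 and 33.2, 1.76, 1.18 and 1.24 and 40.6, 40.3 and 39.9 CPM in the same order (4.50 ± 0.11). For both genes the parental cells were highest and TACI long lowest. FOS was higher by 2.10 ± 0.10, JUNB by 1.63 ± 0.05, DUSP5 by 1.75 ± 0.06 and IER2 by 1.54 ± 0.05. Of the 19 higher genes 10 had a control mean above both lines. EGR2 was called at 1.93 ± 0.59 and not with replicate 1 alone (0.51), nor when any TACI long library or short replicate 3 was left out.

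**Figure D4:**
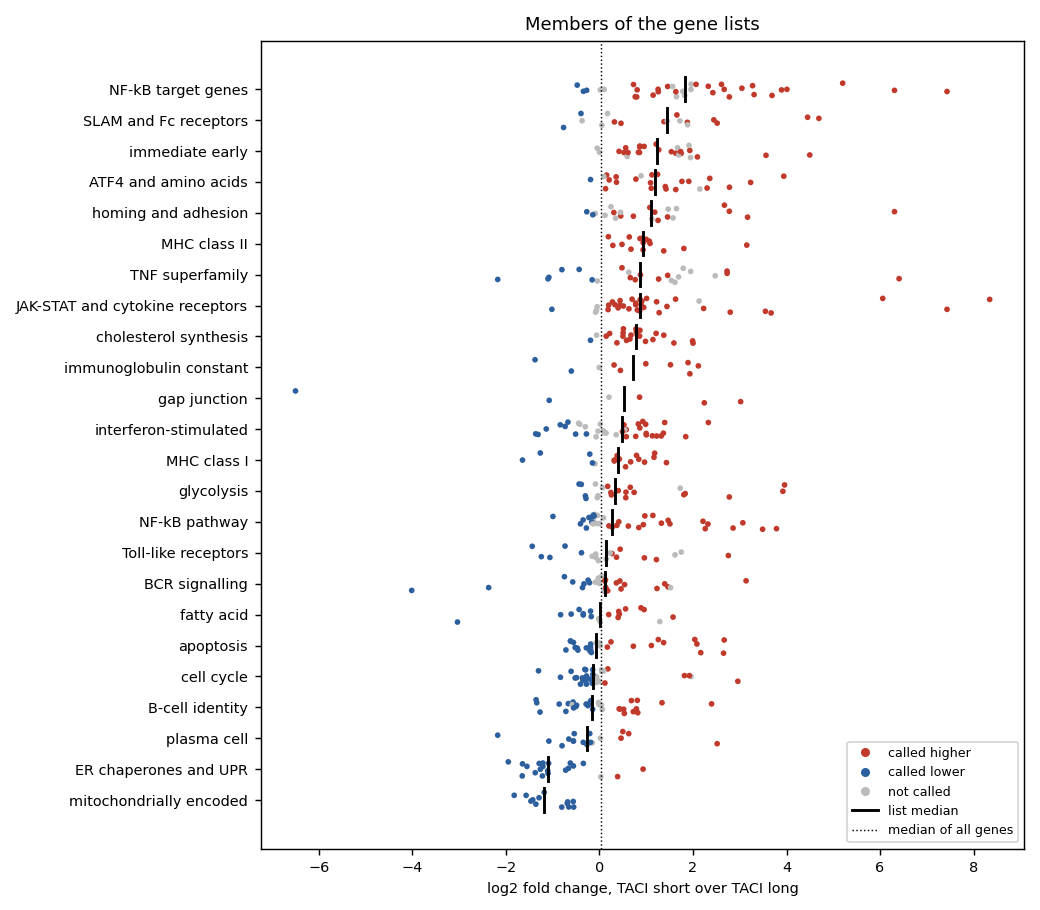
Log2 fold change of TACI short over TACI long for every measured member of 24 gene lists, ordered by list median. Red points were called higher, blue lower and grey not called, black bars are list medians and the dotted line is the median of all genes, 0.04. NF-kB targets lie at the top with a median of 1.82, and the endoplasmic reticulum and mitochondrially encoded lists at the bottom with medians of -1.11 and -1.18.

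Chaperones of the endoplasmic reticulum and genes of the unfolded protein response, which serves protein secretion, were lower. Of 21 measured members 18 were lower and 2 higher, with a median of -1.11, and 20 of these calls were made the same way with replicate 1 alone (median -1.18). HSPA5, which encodes the chaperone BiP, measured 488, 458 and 500.0 CPM in TACI short, 1867, 1826 and 1885 in TACI long and 1111, 1102 and 1140 in control (-1.95 ± 0.05, 3.86-fold lower, adjusted p 3.11e-18). CALR, which encodes calreticulin, measured 647, 592 and 660.0 against 1994, 1938 and 2004 (-1.64 ± 0.05), and SDF2L1, MANF and DNAJB11 were lower at -1.65 ± 0.05, -1.55 ± 0.05 and -1.37 ± 0.05. XBP1, a transcription factor of the response, was lower by less (-0.56 ± 0.05). The control mean lay between the lines for 17 of the 18 lower genes. The higher genes were the sensor ERN1, which encodes IRE1, and EDEM1, at 0.93 and 0.39, named after their values were seen.

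The stretches before the starts of HSPA5 and CALR are printed because they hold the ER stress element, CCAAT, 9 bases of any kind and CCACG (capitals, either strand), the motif of ATF6 and XBP1, which contains the CCAAT box of the factor NF-Y.
HSPA5, chr9:125241344-125241593, minus strand: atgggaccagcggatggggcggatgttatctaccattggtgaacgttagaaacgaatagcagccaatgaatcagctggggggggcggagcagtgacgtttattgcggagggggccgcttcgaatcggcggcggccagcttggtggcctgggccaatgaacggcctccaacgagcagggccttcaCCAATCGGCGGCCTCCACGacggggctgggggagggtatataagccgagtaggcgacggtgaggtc
CALR, chr19:12938359-12938577, plus strand: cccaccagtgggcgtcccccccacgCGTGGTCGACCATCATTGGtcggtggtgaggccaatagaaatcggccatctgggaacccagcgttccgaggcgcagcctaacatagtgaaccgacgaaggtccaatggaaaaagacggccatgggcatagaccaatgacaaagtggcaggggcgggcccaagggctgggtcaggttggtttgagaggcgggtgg
The element was in 6 of 17 lower members of the list with an entry (35.3%), in 0.074% of all promoters of the table, and in 1 of 3635 promoters of all genes called higher and 9 of 4028 of all genes called lower.

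Genes that ATF4, the transcription factor of amino acid shortage, is known to control went the other way from the chaperones. Of 24 measured members 20 were higher and 1 lower, with a median of 1.18, and 1.22 with replicate 1 alone. CHAC1, which breaks down glutathione, measured 50.9, 43.7 and 43.2 CPM in TACI short, 3.38, 2.48 and 3.14 in TACI long and 16.8, 16.3 and 14.1 in control (3.94 ± 0.11, 15.4-fold, adjusted p 1.17e-09). DDIT4, an inhibitor of mTOR, measured 154, 139 and 135 against 15.3, 15.1 and 15.2 (3.23 ± 0.06). DDIT3, which encodes CHOP, was higher by 2.36 ± 0.07, and ATF3 by 2.78 ± 0.16. Asparagine synthetase, encoded by ASNS, measured 550.0, 510.0 and 533 against 171, 172 and 171 CPM (1.63 ± 0.05), and CTH, an enzyme of cysteine synthesis, was higher by 2.30 ± 0.06. The control mean lay between the lines for 16 of the 20 higher genes. The response element TGATGNAA (either strand) was in 3 of 18 of their promoters (16.7%), those of CHAC1, ASNS and ATF3, against 3.14% of all promoters.

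Cholesterol synthesis and uptake genes were higher in TACI short than in TACI long, and mostly lower in both lines than in the parental cells. Of 24 measured members 22 were higher and 1 lower, with a median of 0.78 with all libraries and with replicate 1 alone. HMGCS1, which makes HMG-CoA for cholesterol synthesis, measured 549, 504 and 528 CPM in TACI short, 132, 131 and 132 in TACI long and 910.0, 943 and 937 in control (2.00 ± 0.05, 4-fold, adjusted p 8.81e-19). INSIG1, a sterol sensor partner, measured 169, 159 and 168, 43.9, 41.1 and 39.7 and 259, 259 and 253 in the same order (1.99 ± 0.05). FDFT1, which makes squalene, was higher than in TACI long by 1.21 ± 0.05, and LSS, which makes lanosterol, by 0.87 ± 0.05. For 21 of the 22 higher genes the control mean was above both lines, whereas in the chaperone and ATF4 lists it mostly lay between them. The sterol response element TCACNCCAC was in 1 of 16 promoters of the higher genes, that of SREBF2, and in 0.883% of all promoters. Of 19 fatty acid genes 8 were higher and 8 lower, beside 34.7% and 33.6% of all genes tested. SCD, a fatty acid desaturase, measured 699, 657 and 674 against 228, 226 and 228 CPM (1.57 ± 0.05), with 1111, 1155 and 1143 in control, opposite in direction to its relative SCD5.

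**Figure D5:**
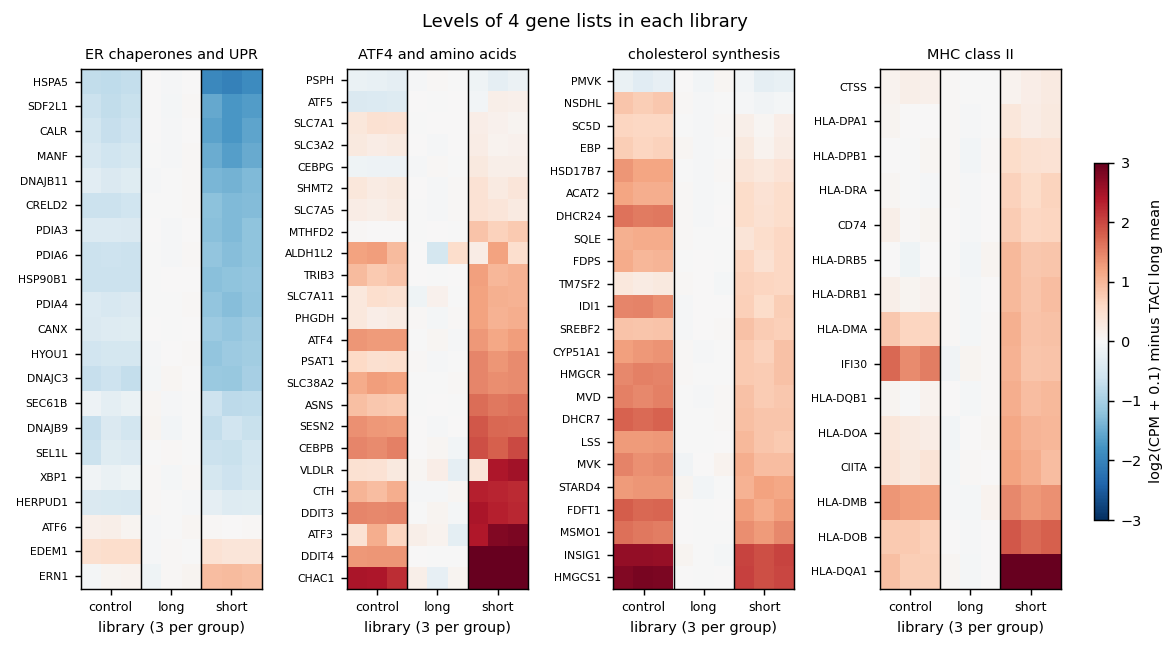
Levels of measured members of 4 gene lists in each of the 9 libraries, as log2(CPM + 0.1) minus the mean of the TACI long libraries (red higher, blue lower, colour limits -3 and 3). Most chaperones are lowest in TACI short, most cholesterol genes are highest in control, and the control libraries lie between the lines for most ATF4 genes.

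Transcripts of energy metabolism differed too. The 13 genes of the mitochondrial genome were all lower, with a median of -1.18 and of -1.23 with replicate 1 alone. MT-ND2, a subunit of respiratory complex I, measured 641, 703 and 709 CPM in TACI short, 2670, 2267 and 2319 in TACI long and 1626, 1819 and 2045 in control (-1.82 ± 0.07), and MT-CO1 was lower by less (-0.80 ± 0.06). Nuclear copies of these genes make their values uncertain. Of 22 glycolysis genes 13 were higher and 4 lower, beside 34.7% and 33.6% of all genes tested. ALDOC, a glycolytic aldolase, measured 127, 113 and 113 against 7.4, 7.92 and 7.36 CPM (3.96 ± 0.06, 15.5-fold, adjusted p 3.77e-21), PFKFB4 measured 45.2, 42.1 and 42.1 against 3.05, 2.77 and 2.70 (3.92 ± 0.07), and the glucose transporter gene SLC2A3 was higher by 2.78 ± 0.13. The control mean lay between the lines for 9 of the 13.

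B-cell identity and germinal centre genes were split, with 11 of 32 higher and 16 lower (median -0.16), and 13 higher and 15 lower with replicate 1 alone. The shares over all genes tested were 34.7% higher and 33.6% lower, so the share of higher genes in this list is near the background. SERPINA9, a germinal centre protease inhibitor, and BACH2 were lower at -1.35 ± 0.05 and -1.27 ± 0.06. The control mean was below both lines for 13 of the 16 lower genes, as for SERPINA9 at 141, 136 and 132 CPM against 439, 431 and 442 in TACI long. LMO2 and IKZF3, transcriptional regulators of B cells, were higher by 2.4 ± 0.12 and 1.34 ± 0.08, and CD22, an inhibitory coreceptor, measured 635, 596 and 588 against 340.0, 349 and 348 (0.81 ± 0.05). Of 17 plasma cell genes 11 were lower and 4 higher (10 and 3 with replicate 1 alone), with MZB1, a secretory chaperone, at -0.65 ± 0.05 and SEC11C at -0.80 ± 0.05. Among antigen receptor signalling genes 13 of 27 were higher and 8 lower (15 and 9 with replicate 1 alone). Here the share of lower genes is near the 33.6% of all genes tested. FYN, the phosphatase gene PTPN6 and the kinase gene PIK3CD were higher by 1.47 ± 0.05, 1.23 ± 0.05 and 1.40 ± 0.05, and CD79B was lower at -0.72 ± 0.05. BLK, a Src-family kinase of B cells, measured 105, 91.7 and 94.4 CPM in TACI short, 162, 160.0 and 166 in TACI long and 110.0, 104 and 107 in control (-0.75 ± 0.05). IGHM measured 6953, 6398 and 6391 CPM against 3321, 3280 and 3328 (0.99 ± 0.05), while IGHD, the other constant region joined to the same variable segment, was lower at -1.38 ± 0.05. Immunoglobulin genes share reads with their relatives and are uncertain.

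Among 27 genes of apoptosis 11 were higher and 13 lower, with 11 and 8 for replicate 1 alone and 13 and 8 with upper-quartile factors. The shares over all genes tested were 34.7% higher and 33.6% lower, so calls in both directions are also the background. The larger differences were upward in both protective and killer genes. The survival genes BCL2A1 and BCL2 measured 33.3, 33.4 and 36.3 against 5.51, 5.11 and 5.6 and 12.1, 13.6 and 13.1 against 3.50, 3.20 and 2.73 CPM (2.67 ± 0.07 and 2.04 ± 0.10). BBC3 and PMAIP1, which encode the killer proteins PUMA and NOXA, were higher by 2.65 ± 0.09 and 2.17 ± 0.05. Of 33 cell cycle genes 5 were higher and 18 lower, beside 34.7% and 33.6% of all genes tested, and 9 and 15 with upper-quartile factors. Their median was -0.14, and -0.07 with replicate 1 alone. CDKN1B, which encodes the inhibitor p27, measured 56.2, 52.4 and 54.3 against 13.8, 14.4 and 14.7 CPM (1.92 ± 0.05), and the S-phase enzyme RRM2 was lower at -0.83 ± 0.05. MKI67, the gene of the proliferation antigen Ki-67, measured 502, 503 and 459 in TACI short, 115, 160.0 and 140.0 in TACI long and 369, 411 and 378 in control (1.82 ± 0.14). CCND1 measured 27.5, 40.8 and 36.8 against 5.29, 4.52 and 3.70 CPM (2.96 ± 0.23, 2.61 with replicate 1 alone), with the highest values in the libraries that hold the myeloid transcripts. Of 19 Toll-like receptor pathway genes 6 were higher and 5 lower, shares that are near or under the 34.7% and 33.6% of all genes tested. Their median was 0.15 with all libraries and -0.25 with replicate 1 alone, so the list leaned lower in that replicate. LY86, TLR10 and IRAK1 were lower at -1.24 ± 0.06, -1.06 ± 0.06 and -0.73 ± 0.05, and IRF5 was higher by 1.22 ± 0.10.

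Calls that replicate 1 alone did not keep were 610 of the higher and 711 of the lower genes. The most abundant of them were named by the rule. SMG1, KMT2D, HERC1, ARFGEF1 and ASAH1 were higher at 0.47, 0.95, 0.12, 0.11 and 0.20, with 0.51, 1.01, 0.08, 0.09 and 0.09 for replicate 1 alone, so SMG1 and KMT2D kept the size of their difference but not the call. RPSA, HMGA1, RPL19, RPS9 and TCP1 were lower, from -0.16 to -0.11, and from -0.09 to -0.06 for replicate 1 alone. Of the 14 measured myeloid markers 5 were called higher with all libraries, CSF1R at 20, 53.7 and 54.4 CPM against 12, 8.13 and 5.89 among them (2.30 ± 0.55, no call with replicate 1 alone), while with replicate 1 alone 2 were higher and 5 lower. FCER1G measured 2.4, 24.6 and 23.8 against 7.30, 5.63 and 4.07. COL1A1 (1.79 ± 0.56) and LGALS1 (1.54 ± 0.46) were called with all libraries at 3.19, 10.2 and 9.78 and 5.08, 13.1 and 13.2 CPM in TACI short, and with replicate 1 alone they were called at 0.51 and 0.50. VIM, at 3.35, 21.5 and 23.6 CPM against 6.06, 5.38 and 3.80, was not called. The calls of ITGAL, COL1A1, LGALS1 and CSF1R were lost when any 1 of the TACI long libraries or short replicate 2 or 3 was left out.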

How the data were processed

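The authors deposited raw counts per gene, 1 file per library, for 57500 Ensembl genes on hg38. The submitters' processing notes name FastQC, STAR 2.4.0h and HTSeq, while the columns are laid out as featureCounts writes them. Annotation release, strand setting and filters are not given in the sources used here. Nextera XT libraries do not keep the strand, per the labels' protocols, so antisense and overlapping genes cannot be told apart. Gene types and symbols came from GENCODE release 29, which holds 56898 of the genes.

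From these counts, genes were kept with filterByExpr (minimum count 10, minimum total 15) over the 6 libraries, scaled with TMM factors and tested by robust quasi-likelihood fits in edgeR 4.0.16 (R 4.3.3). The fit had 4 residual degrees of freedom and a biological coefficient of variation of 0.103. P-values had Benjamini-Hochberg adjustment over all genes and a threshold of 0.05. The SE was taken as the size of the log2 fold change over the root of its F statistic. Control CPM use factors on the same reference. Total counts were 40322136 to 50079203 per library. Where a group held 20 counts or fewer a ratio with an exact 95% interval replaces the fold change. Such an interval covers counting error only, because the reads carry no molecular identifiers. Replicates differed by more than sampling noise (chi-square per degree of freedom 2.46 to 18.7).

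The genes, the 30 lists and the naming rule were chosen with earlier results of these data known. The rule names TNFRSF13B, CD70, JAK3 and GJA3, the 15 greatest changes each way under the conditions given in the text, any member of 4 lists (the TACI receptors and partners, NF-kB pathway, TNF superfamily, JAK-STAT), up to 8 called members of each other list by size among those with a mean log2 CPM of at least 1, up to 3 members of each marker list by level, and the 5 most abundant calls each way that replicate 1 alone does not keep. Median fold changes and counts describe lists, and no list was tested. A few named genes are not reported here. The alternatives tried were upper-quartile factors, limma-voom 3.58.1, DESeq2 1.42.0, its size factors within edgeR, other filters on low counts, all 9 libraries in the fit, the replicate number as a block, a minimum change of 1.5-fold, short replicate 1 alone and each library left out. On simulated counts for this comparison, 200 genes were changed among 15947. The fit found 82.1 to 88.1% of those changed 1.5-fold and 98.5 to 100% of those changed 2-fold, with 9 to 12 false calls. These rates are not split by expression level. Whether they hold where 68.3% of genes are called, as with the 6 libraries, was not tested. Nor was it tested for short replicates as unequal as these.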

Additional observations from a re-analysis of the deposited data

How the results depend on the processing

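Of 16 alternatives, the count of higher and of lower genes left the range within 1.5 times of the reported one only with a minimum change of 1.5-fold (glmTreat of edgeR), where 2589 genes were higher and 1047 lower, by construction of that test. With upper-quartile factors 6607 were higher and 4576 lower, and with no filter on low counts the median over 40064 genes was 0.71. Leaving out 1 library at a time gave 4924 to 6571 higher and 5146 to 6089 lower genes, and 1.81 to 1.93 for TNFRSF13B. Replicate numbers did not pair the samples (correlations of same-numbered libraries -0.289, 0.124 and -0.292, and not every library correlated best with its own number). With the replicate number as a block 5423 genes were higher and 5347 lower and TNFRSF13B stood at 1.88. Of 3746 values of named genes over the alternatives, 3510 kept their direction and their side of the threshold, 182 lost and 48 gained a call. With short replicate 1 alone 6 genes that were not called with all libraries were called lower, SDC2 (-1.12), SDC4 (-2.22), TNFSF15 (-1.54), TNFRSF1A (-1.14), FCER1G (-1.24) and VIM (-0.60), the genes whose levels were high in short replicates 2 and 3. Ratios given for genes with 20 counts or fewer in TACI long rest on those few counts. The fitted difference of JAK3, for example, ranged from 7.75 to 9.18 when 1 long library was left out.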

Other observations

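In some stretches of the genome most genes were lower in TACI short. These stretches were chosen after their values were seen. DNA was not measured, and the cause was not tested. Over windows of 40 neighbouring protein-coding genes with a mean log2 CPM of at least 3, the median log2 fold change of all 8830 such genes was -0.12. Of these 8830 genes, 4409 were called lower and 2604 higher, so many lower genes are also the background of a window. The lowest window lay at chr6:42224931-47627263 (hg38, from the first gene's start to the last gene's end), with a median of -0.73, where 32 genes were lower and 6 higher in TACI short. Its median was -0.68 with short replicate 1 alone, -0.73 for TACI short over control and -0.09 for TACI long over control, so the short line stood apart there. UBR2, a ubiquitin ligase, was lower at -0.80 ± 0.05, and TBCC, a tubulin folding cofactor, at -0.75 ± 0.05. VEGFA, an angiogenic factor, was an exception at 2.25, and NFKBIE of the NF-kB inhibitors was another at 0.62. A second window at chr2:25377198-32224379 had a median of -0.58, with 31 genes lower and 3 higher. There TACI short over control was at -0.31 and TACI long over control at 0.20. With the lowest window of each chromosome taken, the next medians were -0.38, on chromosomes 5 and 20.

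Replication histone genes were lower as well. Of 38 measured genes with a HIST symbol 20 were lower and 1 higher, beside 33.6% and 34.7% of all genes tested. Their median was -0.65, and -0.57 with replicate 1 alone. HIST1H2BK measured 8.28 ± 0.225 CPM in TACI short, 20 ± 1.00 in TACI long and a mean of 13.9 in control (SD, n = 3), a log2 fold change of -1.27 ± 0.07 (SE) with an adjusted p of 1.41e-12 in edgeR. Most replication histone mRNAs lack a poly(A) tail, so these polyadenylated libraries hold only part of them, and near-identical copies share reads. Long intergenic noncoding RNAs were more often higher, with 370 of 832 higher and 137 lower (347 and 99 with replicate 1 alone), against 4334 and 4845 of 12635 protein-coding genes.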
